A study of Saccharomyces cerevisiae with 16 samples.

Results

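Serine and glycine metabolism of budding yeast was followed through 9 genes, of 6174 features on the arrays, during a shift to alkaline medium. The genes were chosen by function, synthesis against breakdown, and also by value: SER3, CHA1 and SRY1 were picked for a strong change at 30 min. Their 30 min values are therefore given as a description with no test, and so are the 30 min ratios of the other 6 genes. The tests concern 10 min, whose values did not choose the genes. They also cover the difference between strains at 30 min for genes that were not picked by value. A 10 min test of SER3 or SRY1 is still not independent of their choice by 30 min values.

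Every array set RNA of Saccharomyces cerevisiae cells given 20 mM KOH, which makes the medium alkaline, against RNA of that strain after as long in 20 mM KCl, which adds the potassium without the alkali. The strains were W303-1A, called wild type, and MCY5278, a msn2::kanMX4 msn4::hphMX4 double mutant of W303-1A that lacks the stress transcription factors Msn2 and Msn4. Both were harvested in exponential growth in rich medium (YPD) after 10 or 30 min, which gives 4 groups of 4 arrays. The question behind the design is what the kinase pathway that acts through Msn2 and Msn4 contributes to the alkaline response. The mutant is 1 strain, so the strain comparison cannot tell the 2 deletions from anything else that differs between MCY5278 and the wild type. In each group the KOH RNA carried the dye Cy3 on 2 arrays (arrays 1 and 4) and Cy5 on 2 (arrays 2 and 3). The array titles are numbers that fall into 2 series, here called slide series. Array 4 of each group belongs to the smaller series and the other 12 arrays to the larger. What the series stand for is not stated. A trait of array 4 cannot be told apart from one of its series. Per the labels each condition had 2 biological replicates and a dye swap. With 4 arrays in a group, arrays then share a replicate, but which ones do is not stated. Each array counted as a unit, so the p-values are too small to an unknown degree.

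Yeast makes serine from 3-phosphoglycerate, an intermediate of glycolysis. The isoenzymes Ser3 and Ser33 oxidise 3-phosphoglycerate, the aminotransferase Ser1 adds the amino group, and the phosphatase Ser2 releases serine. Serine hydroxymethyltransferase, Shm1 in mitochondria and Shm2 in the cytosol, exchanges serine and glycine and loads a one-carbon unit onto folate, and the threonine aldolase Gly1 makes glycine from threonine. In the other direction the deaminase Cha1 breaks down serine and threonine, and Sry1 breaks down 3-hydroxyaspartate, a related hydroxy amino acid. SER3 and CHA1 are known to respond to serine in opposite ways: with serine at hand, the activator Cha4 switches on CHA1 and also a non-coding RNA, SRG1, whose transcription across the SER3 promoter keeps SER3 low.

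Each value is a log2 ratio of KOH over KCl after the array was centred on its own median, so a change shared by most RNAs would not be seen, and a shift in all cells cannot be told apart from one in some of them. Base and direction are likely rather than stated: the alkali-induced genes PHO89, NCE103 and CMK2 were above 0 in 48 of 48 measured values, and positive was read as more RNA in KOH. An array held values for 33.6% to 88.2% of the features, and the arrays of a group correlated at 0.54 to 0.87. In the mutant, MSN2 still had a value on 8 of 8 arrays and MSN4 on 5 of 8. These are ratios of the mutant against itself, so they do not check the deletions. Of the 9 genes, 7 had a value on all 16 arrays, while SHM1 and CHA1 had one on 8 each. Since the values are ratios, no level of 1 gene was set against that of another.

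**Figure D1:**
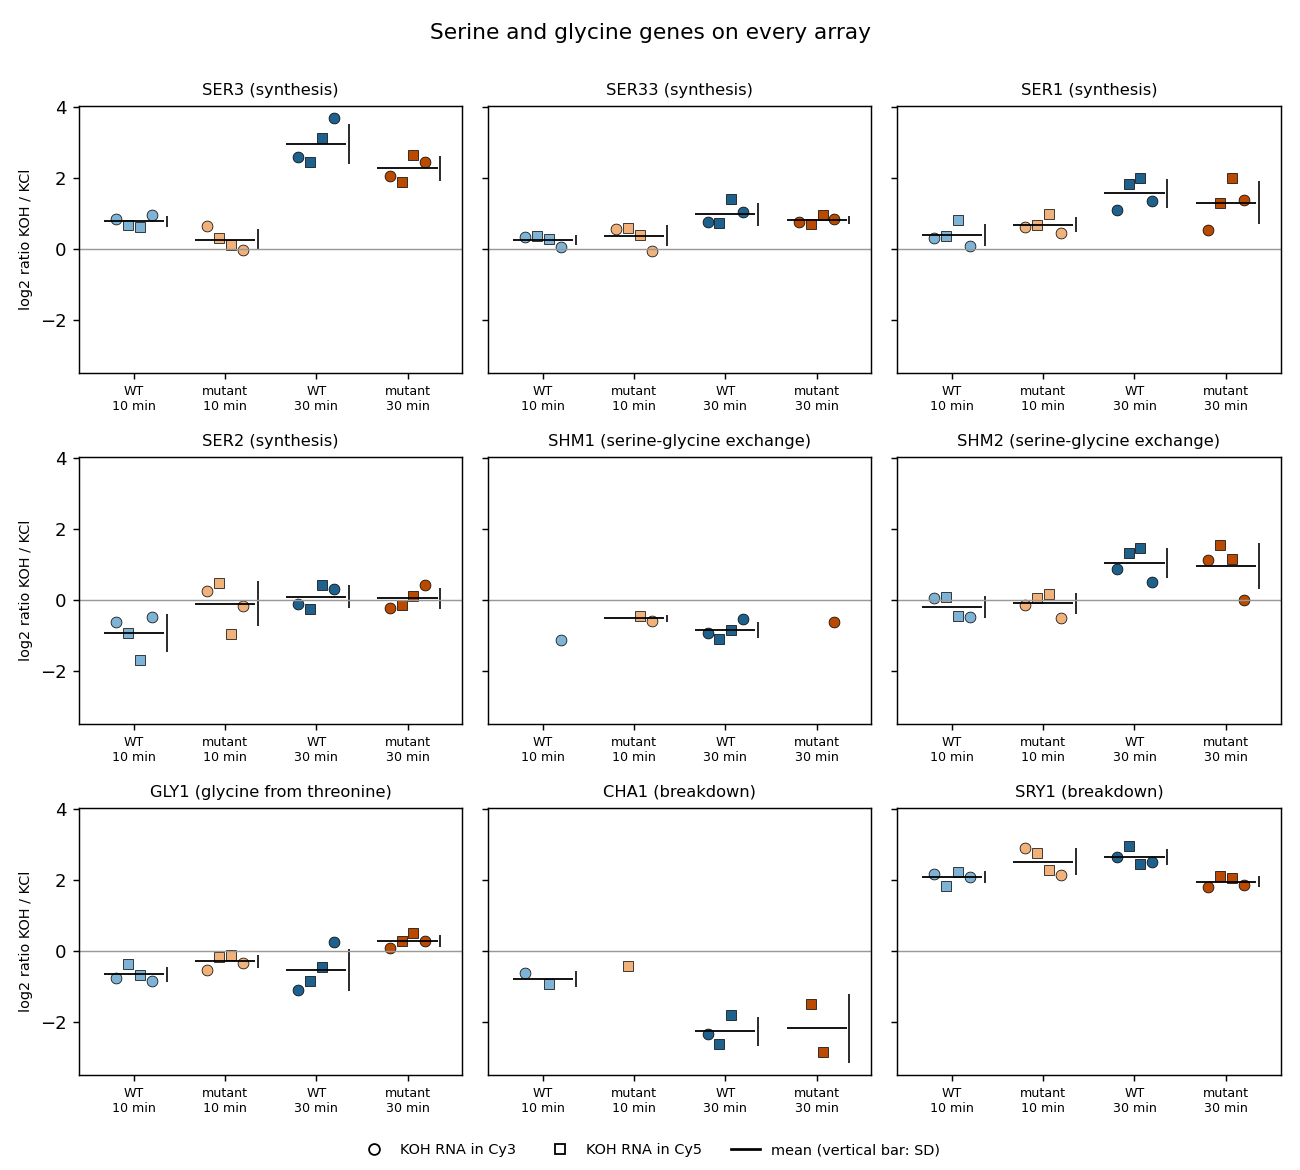
Log2 ratio of KOH over KCl (vertical axis) of the 9 genes on every array, by strain and time (horizontal axis), with circles for KOH RNA in Cy3, squares for KOH RNA in Cy5, horizontal lines for group means and vertical bars for the SD. SER3 stands between 2.46 and 3.70 in wild type at 30 min and CHA1 between -2.60 and -1.80, while SRY1 is at 1.80 or above on all 16 arrays.

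In the first step of serine synthesis, SER3 but not SER33 had a call in wild type at 10 min. SER3 (YER081W), a 3-phosphoglycerate dehydrogenase, had log2 ratios of 0.86, 0.69, 0.64 and 0.97 on the 4 wild type arrays at 10 min. All 4 were above 0, and the fitted rise of 0.79 ± 0.18 (standard error, n = 4), or 1.73-fold, passed the limma test (adjusted p = 0.00227). With arrays of opposite dye averaged into 1 replicate, which brings the units to the 2 biological replicates of the labels, the adjusted p ran up to 0.0543 over the possible pairings, so that the call then depended on the pairing. In the mutant at 10 min the ratios were 0.65, 0.33, 0.11 and -0.01, spread from clearly positive to 0. Their estimate of 0.27 ± 0.18 did not pass (limma adjusted p = 0.259). The mutant was lower than wild type by a difference of -0.52 (95% interval -1.06 to 0.02), which did not pass either (adjusted p = 0.564), and the lowest wild type array lay below the highest mutant array.

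At 30 min SER3 had the largest positive estimate of the 9 genes in both strains, although SRY1 was above it on wild type arrays 1 and 2 and on mutant array 2. The wild type arrays gave 2.59, 2.46, 3.12 and 3.70, and the mutant arrays 2.07, 1.91, 2.67 and 2.46. Every 30 min array was above every 10 min array, and the ranges of the strains overlapped. What share of all features separates groups in this way was not counted, for this gene or those below. The estimates were 2.97 ± 0.18 in wild type, or 7.82-fold, and 2.27 ± 0.18 in the mutant, or 4.84-fold. From 10 to 30 min the ratio was larger by 2.18 ± 0.25 in wild type and by 2.01 ± 0.25 in the mutant.

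SER33 (YIL074C), the second 3-phosphoglycerate dehydrogenase, had small positive ratios at 10 min. Its wild type ratios at 10 min were 0.34, 0.38, 0.30 and 0.05, and its mutant ratios 0.57, 0.59, 0.39 and -0.04. In both groups array 4 was lowest and close to 0. The estimate in wild type was 0.27 ± 0.13 (limma adjusted p = 0.112), which did not pass, and in the mutant 0.38 ± 0.13, or 1.30-fold, which did (adjusted p = 0.0335). That mutant call was lost without mutant array 1, 2 or 3 (adjusted p = 0.174, 0.135 and 0.0691).

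At 30 min SER33 stood at 0.77, 0.73, 1.42 and 1.04 in wild type and at 0.76, 0.72, 0.98 and 0.87 in the mutant. All 8 arrays lay above all 8 of the 10 min arrays. The estimates were 0.99 ± 0.13, or 1.99-fold, and 0.83 ± 0.13, or 1.78-fold. The paralogs SER3 and SER33 have similar sequences, and whether their probes separate them is not given in the sources used here. Their ratios differed on every 30 min array, with SER3 the higher one.

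SER1 (YOR184W), the phosphoserine aminotransferase, was higher in KOH in both strains at 10 min. Wild type gave 0.32, 0.39, 0.82 and 0.10, and the mutant 0.64, 0.68, 0.99 and 0.47. All 8 arrays were above 0, with array 3 highest and array 4 lowest in each strain. The rise was 0.41 ± 0.15 in wild type (limma adjusted p = 0.0432) and 0.70 ± 0.15 in the mutant (adjusted p = 0.0023), or 1.32-fold and 1.62-fold. Under averaging over dyes the mutant call was lost in the least favourable pairing (adjusted p = 0.070). The wild type call was a marginal one: it was lost without wild type array 1, 3 or 4 at 10 min (adjusted p = 0.136, 0.162 and 0.0887), and also without some arrays of other groups, which share the estimate of the spread (0.0524 to 0.0556).

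By 30 min SER1 ratios were 1.10, 1.84, 2.00 and 1.37 in wild type and 0.56, 1.29, 2.01 and 1.40 in the mutant. The estimates were 1.57 ± 0.15, or 2.98-fold, and 1.31 ± 0.15, or 2.49-fold. The wild type arrays at 30 min all lay above those at 10 min, whereas the lowest mutant array at 30 min lay within the mutant range at 10 min. SER1 was read higher by 0.51 where the KOH RNA was in Cy5, the largest such dye effect among the 9 genes, and the model takes it out.

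SER2 (YGR208W), the phosphoserine phosphatase of the last step, did not follow the other synthesis genes. In wild type at 10 min it was at -0.60, -0.91, -1.67 and -0.48, below 0 on all 4 arrays. This fall, with an estimate of -0.92 ± 0.21 or 1.89-fold lower, passed (limma adjusted p = 0.00243). Mutant arrays at 10 min scattered on both sides of 0, at 0.27, 0.47, -0.94 and -0.17, with an estimate of -0.09 ± 0.21 (adjusted p = 0.761). The mutant minus wild type difference was 0.82 (95% interval 0.19 to 1.45). It had an unadjusted p of 0.0138, but over all genes tested it did not pass (limma adjusted p = 0.365), and the ranges of the strains overlapped.

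At 30 min SER2 lay near 0 in both strains, with ratios of -0.10, -0.24, 0.42 and 0.33 in wild type and -0.21, -0.12, 0.12 and 0.43 in the mutant. The estimates were 0.10 ± 0.21 and 0.05 ± 0.21. All wild type arrays at 30 min were above all wild type arrays at 10 min. SER2 thus had no ratio past 0.43 at 30 min in either direction, where the lowest ratio of SER3, SER33 or SER1 on any array was 0.56.

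The genes of the enzymes that exchange serine and glycine, SHM1 and SHM2, had ratios of opposite sign in wild type at 30 min. SHM1 (YBR263W), the mitochondrial serine hydroxymethyltransferase, was at -0.91, -1.08, -0.83 and -0.52 there, with an estimate of -0.83 ± 0.14, or 1.78-fold lower. SHM2 (YLR058C), the cytosolic enzyme, was at 0.88, 1.32, 1.47 and 0.53, with an estimate of 1.05 ± 0.18, or 2.07-fold. On each of these 4 arrays SHM1 was below 0 and SHM2 above it.

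In the other groups SHM1 had few values and was not tested. It was at -1.11 on 1 wild type array at 10 min, at -0.43 and -0.57 on 2 mutant arrays at 10 min and at -0.61 on 1 mutant array at 30 min. All 8 of its values in the series were negative.

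SHM2 showed no call at 10 min. The wild type arrays gave 0.06, 0.10, -0.45 and -0.46 and the mutant arrays -0.12, 0.08, 0.19 and -0.50. These values lie on both sides of 0 in both strains, with estimates of -0.19 ± 0.18 (limma adjusted p = 0.429) and -0.09 ± 0.18 (adjusted p = 0.731). At 30 min the mutant arrays were at 1.15, 1.54, 1.16 and 0.02, with an estimate of 0.97 ± 0.18, or 1.96-fold. The lowest of these, array 4, fell inside the mutant range at 10 min, while the 4 wild type arrays at 30 min were above all those at 10 min. SHM2 had a dye effect of 0.48, close to that of SER1.

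GLY1 (YEL046C), the threonine aldolase, was lower in KOH in wild type at 10 min. Its ratios there were -0.74, -0.37, -0.67 and -0.82, an estimate of -0.65 ± 0.17, or 1.57-fold lower (limma adjusted p = 0.00563). Averaged over dyes, this call was lost in the least favourable pairing (adjusted p = 0.0797). The mutant arrays at 10 min were also below 0, at -0.53, -0.17, -0.11 and -0.32, but their estimate of -0.28 ± 0.17 did not pass (adjusted p = 0.209). The difference between strains at 10 min was 0.37 (95% interval -0.14 to 0.88; adjusted p = 0.676).

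At 30 min the strains stood further apart for GLY1. Wild type gave -1.09, -0.83, -0.45 and 0.27, and the mutant 0.11, 0.30, 0.51 and 0.28. The wild type values ran from clearly negative to just below those of the mutant arrays 2 and 4, so that the ranges overlapped through wild type array 4 alone. The mutant minus wild type difference was 0.82 ± 0.24 (95% interval 0.32 to 1.33), with an unadjusted p of 0.00337 and a limma adjusted p of 0.0856, which did not pass. Without wild type array 4 the difference was 1.14 and passed (adjusted p = 0.0223). It also passed where arrays were weighted by their quality (1.06, adjusted p = 0.00487). Those were the only 2 of the 30 alternatives under which it passed. Over the others the limma adjusted p ran up to 0.852.

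The gene of serine and threonine breakdown, CHA1 (YCL064C), stood alone among the 9 in having ratios below -2. In wild type at 30 min it was at -2.33, -2.60 and -1.80 on the 3 arrays that gave a value, with an estimate of -2.23 ± 0.29 (n = 3), or 4.70-fold lower. Both mutant arrays with a value at 30 min, which carried the KOH RNA in Cy5, were at -1.48 and -2.85. These lie on either side of the wild type values.

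CHA1 at 10 min was measured on 2 wild type arrays, at -0.61 and -0.93, and on 1 mutant array, at -0.42. All 8 values of the gene were negative, and the 3 values at 10 min were all closer to 0 than the 5 at 30 min. Too few arrays had a value for a test outside wild type at 30 min, and that group took part in choosing the gene.

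SRY1 (YKL218C), the 3-hydroxyaspartate dehydratase, had the largest change of the tested genes at 10 min. Wild type arrays read 2.19, 1.84, 2.23 and 2.09, and mutant arrays 2.92, 2.76, 2.28 and 2.14. The rise was 2.09 ± 0.14 in wild type, or 4.25-fold (limma adjusted p = 1.12e-08), and 2.52 ± 0.14 in the mutant, or 5.75-fold (adjusted p = 1.63e-09). No other of the 9 genes was above 1 on any array at 10 min. The mutant minus wild type difference of 0.44 (95% interval 0.02 to 0.85) had an unadjusted p of 0.04 and did not pass over all genes (limma adjusted p = 0.502). Over the alternatives it ran from 0.28 without mutant array 1 to 0.79 under quantile normalization and passed under none.

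At 30 min the order of the strains for SRY1, which had not passed at 10 min, was the other way round. This is a description without a test. Wild type was at 2.64, 2.98, 2.46 and 2.53, and the mutant at 1.80, 2.11, 2.06 and 1.88. The lowest wild type array was above the highest mutant array, but these values took part in choosing the gene. The estimates were 2.65 ± 0.14, or 6.28-fold, and 1.96 ± 0.14, or 3.89-fold, and the mutant minus wild type difference was -0.69 ± 0.20. Between 10 and 30 min the ratio changed by 0.56 ± 0.20 in wild type and by -0.56 ± 0.20 in the mutant. Under quantile normalization these changes were 1.48 ± 0.22 and -0.14 ± 0.22, and under scaling of the arrays to 1 spread the mutant change was -0.96. Their sizes did not hold, and under quantile normalization the mutant change was smaller than its standard error. By estimate SRY1 stood highest in 30 min wild type, followed by 10 min mutant, 10 min wild type and 30 min mutant, and each of these groups overlapped in range with the next. Quantile normalization turned the last pair round, with the 30 min mutant at 2.29 and the 10 min wild type at 1.65.

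Over the genes that could be tested at 10 min, 3 of 7 were higher in KOH in wild type (SER1, SER3 and SRY1) and 2 were lower (SER2 and GLY1). SER3 and SRY1 had been picked by value. Among the genes not picked by value, SER1, a marginal call, was the only rise in wild type at 10 min. Of all 2670 genes tested in that group, 21.1% were higher and 20% lower. In the mutant at 10 min 3 of 7 were higher (SER1, SER33 and SRY1) and 0 lower, where 17.9% and 17.1% of 3042 genes were. For the falls, that count of 0 is by limma, and 0 falls had an unadjusted p under 0.05 either. The median ratio of the 7 was 0.27 in both strains at 10 min, beside -0.04 over all genes tested in wild type and 0.01 in the mutant. Since SER3 and SRY1 are among the 7, these medians and counts are a description of the genes chosen. For the genes not picked by value the wild type estimates were 0.41 (SER1), 0.27 (SER33), -0.19 (SHM2), -0.65 (GLY1) and -0.92 (SER2). In the mutant they were 0.70, 0.38, -0.09, -0.28 and -0.09 in the same order. In both strains these estimates lie on either side of 0.

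At 30 min the median was 0.99 over 9 genes in wild type and 0.97 over 7 in the mutant, beside 0.02 over all genes tested in each. Since some of the genes were picked by their 30 min values, these medians are a description. Over all genes, 18.4% of 4288 passed as higher and 18.4% as lower in wild type at 30 min, and 21.5% and 18.8% of 4234 in the mutant.

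The strains could be compared directly for 7 of the genes at 10 min and for 5 of the genes not picked by value at 30 min. With limma 0 of 7 passed at 10 min, where 0.932% of 2361 genes did, and 2 (SER2 and SRY1) had an unadjusted p under 0.05. At 30 min 0 of 5 passed, where 0.603% of 3978 genes did, and 1 (GLY1) had an unadjusted p under 0.05. For SER1 the 30 min difference was -0.26 (95% interval -0.72 to 0.20), for SER33 -0.16 (-0.55 to 0.23), for SER2 -0.05 (-0.68 to 0.58) and for SHM2 -0.08 (-0.61 to 0.45). The widest of these intervals reach -0.72 and 0.58, so they do not show that the strains acted alike. SER3, with a difference of -0.69 ± 0.25 at 30 min, and SRY1 were picked by their 30 min values and were not tested there.

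**Figure D2:**
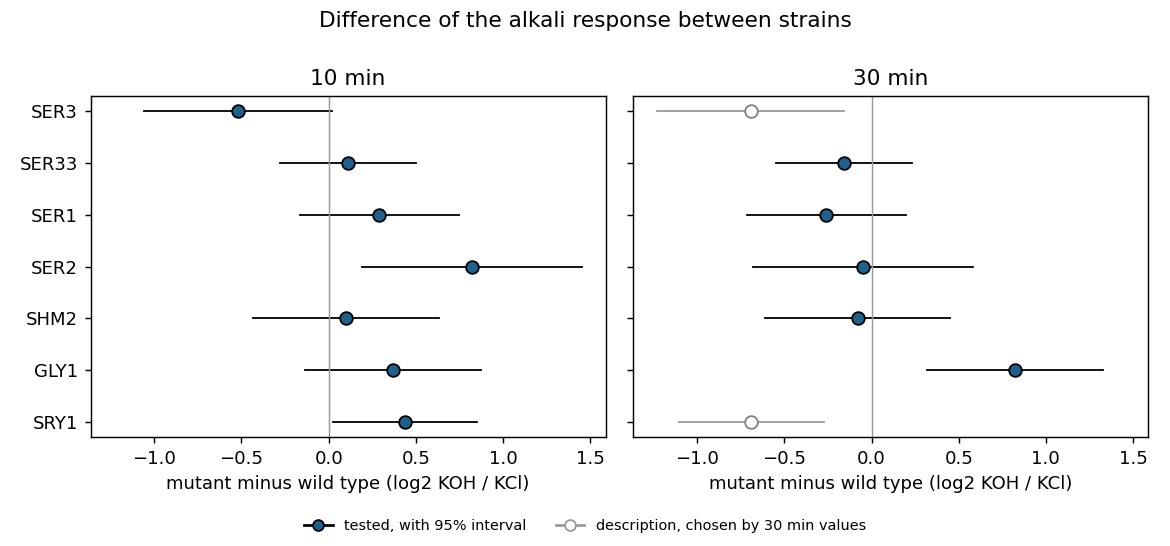
Mutant minus wild type difference of the log2 ratio of KOH over KCl (horizontal axis) for the 7 genes with a value on all 16 arrays, at 10 min (left) and 30 min (right), with 95% intervals from the model; open grey symbols are genes picked by their 30 min values. The GLY1 interval at 30 min runs from 0.32 to 1.33, and the SER2 interval at 10 min from 0.19 to 1.45, but neither passed after adjustment over all genes.

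Around these 9 genes stand 33 others of the same metabolism, listed by function: glycine cleavage, folate one-carbon steps, the threonine and glyoxylate route to glycine, enzymes that use serine, other hydroxy amino acid breakdown, and regulators. In wild type at 10 min 2 of the 25 tested rose and 3 fell, fewer than the 21.1% and 20% of all genes, and in the mutant 4 rose and 1 fell of 25, beside 17.9% and 17.1%. These 10 min counts are no result about the list. At 30 min 11 rose and 1 fell of 28 in wild type, where 18.4% of all genes rose and 18.4% fell. In the mutant 13 rose and 1 fell of 27, where 21.5% and 18.8% did. With arrays of opposite dye averaged into 1 replicate, as few as 3 passed in wild type and 5 in the mutant at 30 min, depending on the pairing. The median ratio of the tested genes went from -0.15 to 0.17 in wild type and from 0.08 to 0.34 in the mutant, where the medians over all genes tested were between -0.04 and 0.02. Several of these counts hung on single arrays. The wild type count of 5 at 10 min was 3 without array 3 of that group, and the mutant count of 5 was 3 without array 4. The mutant count of 14 at 30 min was 8 without array 3 and 6 without array 4. Centred instead on the genes with a value on all 16 arrays, the split at 10 min became 6 up and 2 down in wild type and 7 up and 1 down in the mutant. By list, the enzymes that use serine had 1 rise among 5 tested at 30 min in each strain. The threonine and glyoxylate route had 1 of 5 in wild type and 4 of 6 in the mutant. Over all genes 18.4% rose in wild type and 21.5% in the mutant.

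The glycine cleavage system, which breaks glycine down in mitochondria and passes its carbon to folate, had calls at 30 min in 1 direction. Of its 4 genes, 3 rose in wild type, where 18.4% of all genes did, and 2 in the mutant, where 21.5% did. GCV2 (YMR189W), its glycine decarboxylase, read 0.74, 1.08, 0.90 and 0.90 in wild type at 30 min and 1.35, 1.70, 0.65 and 0.72 in the mutant. All 8 arrays were above 0, with estimates of 0.90 ± 0.21 (limma adjusted p = 0.00294) and 1.10 ± 0.21 (adjusted p = 0.000694). The other 3 genes are named to complete the list, after their values were seen. GCV1 rose by 0.62 ± 0.12 (adjusted p = 0.000991) in wild type and by 0.41 ± 0.12 (adjusted p = 0.0166) in the mutant. GCV3 rose by 0.63 ± 0.14 in wild type (limma adjusted p = 0.0026) and was at 0.06 ± 0.14 in the mutant (adjusted p = 0.759), and the difference between strains did not pass (-0.58, adjusted p = 0.136). LPD1, the dehydrogenase shared with other enzyme complexes, was at 0.23 ± 0.14 and 0.30 ± 0.14 and passed in neither strain. No gene of the system passed at 10 min by limma, where LPD1 in wild type and GCV1 in the mutant had an unadjusted p under 0.05.

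Among the 10 folate genes 4 rose and 1 fell in wild type at 30 min, beside 18.4% of all genes each way. In the mutant 5 rose and 1 fell of 9 tested, beside 21.5% and 18.8%. The mitochondrial and cytosolic forms of C1-tetrahydrofolate synthase moved in opposite directions, as SHM1 and SHM2 stood in wild type. GCV1, GCV2 and GCV3, also of mitochondria, rose in wild type at 30 min, so the direction did not follow the compartment throughout. MIS1 (YBR084W), the mitochondrial form, was at -1.50, -1.80, 0.27 and -1.42 in wild type at 30 min, with array 3 apart from the other 3, and at -0.90, -0.71, -1.11 and -0.89 in the mutant. Its estimates were -1.11 ± 0.23 (limma adjusted p = 0.00139) and -0.90 ± 0.23 (adjusted p = 0.00631). ADE3 (YGR204W), the cytosolic form, was at 0.14, 0.54, 1.90 and 1.27 in wild type and at 1.06, 1.47, 1.61 and 1.26 in the mutant. It was above 0 on all 8 arrays, and its rises were 0.96 ± 0.20 (limma adjusted p = 0.00156) and 1.35 ± 0.20 (adjusted p = 8.68e-05).

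MET13 (YGL125W), a methylenetetrahydrofolate reductase that sends one-carbon units to methionine, showed the largest rise among the related genes in the mutant at 30 min, while in wild type its rise was close to that of ADE3. Wild type was at 0.79, 0.37, 1.31 and 1.35 and the mutant at 2.05, 1.44, 1.84 and 1.70, so that every mutant array was above every wild type array. The rises were 0.96 ± 0.17 (limma adjusted p = 0.000655) and 1.76 ± 0.17 (adjusted p = 3.42e-06). The difference between strains, 0.80 ± 0.24, had an unadjusted p of 0.00484 and did not pass (adjusted p = 0.0939). At 10 min MET13 was at 2.12 and 2.10 on the 2 wild type arrays with a value, which were too few for a test. It was at 1.45, 1.22 and 1.03 on 3 mutant arrays, a rise of 1.25 ± 0.19 (limma adjusted p = 0.00032).

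Its paralog MET12 (YPL023C) rose at 10 min by 0.68 ± 0.13 in wild type (limma adjusted p = 0.000772) and by 0.66 ± 0.13 in the mutant (adjusted p = 0.0013), with all 8 arrays above 0. FOL1 (YNL256W), an enzyme of folate synthesis, fell at 10 min in both strains, with estimates of -0.95 ± 0.16 (limma adjusted p = 0.000196) and -0.73 ± 0.16 (adjusted p = 0.00249), and all 8 arrays were below 0. DFR1 (YOR236W), dihydrofolate reductase, fell in wild type at 10 min, with an estimate of -0.68 ± 0.17 on 3 arrays (limma adjusted p = 0.00635). The early folate calls thus went in both directions within each strain's list.

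Of the regulators, PHO2 (YDL106C), a partner of the activator Bas1, was above 0 on all 16 arrays. It rose at 10 min by 0.41 ± 0.12 in wild type (limma adjusted p = 0.0115) and by 0.59 ± 0.12 in the mutant (adjusted p = 0.00116), and the wild type call was lost without array 3 of that group (adjusted p = 0.0869). GCN4 (YEL009C), the activator of amino acid synthesis genes that is controlled mainly through its translation, was at -0.47, -0.21, -0.32 and -0.51 in wild type at 10 min. That fall, with an estimate of -0.38 ± 0.14, only just passed (limma adjusted p = 0.0482) and was lost when any 1 of the 4 arrays of the group was left out (0.0585 to 0.159). CHA4, the activator of CHA1, had too few values for a test in any group. No related gene passed a strain difference by limma, 0 of 24 at 10 min and 0 of 26 at 30 min, where 1 and 2 had an unadjusted p under 0.05. Without wild type array 3, 2 passed at 30 min.

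**Figure D3:**
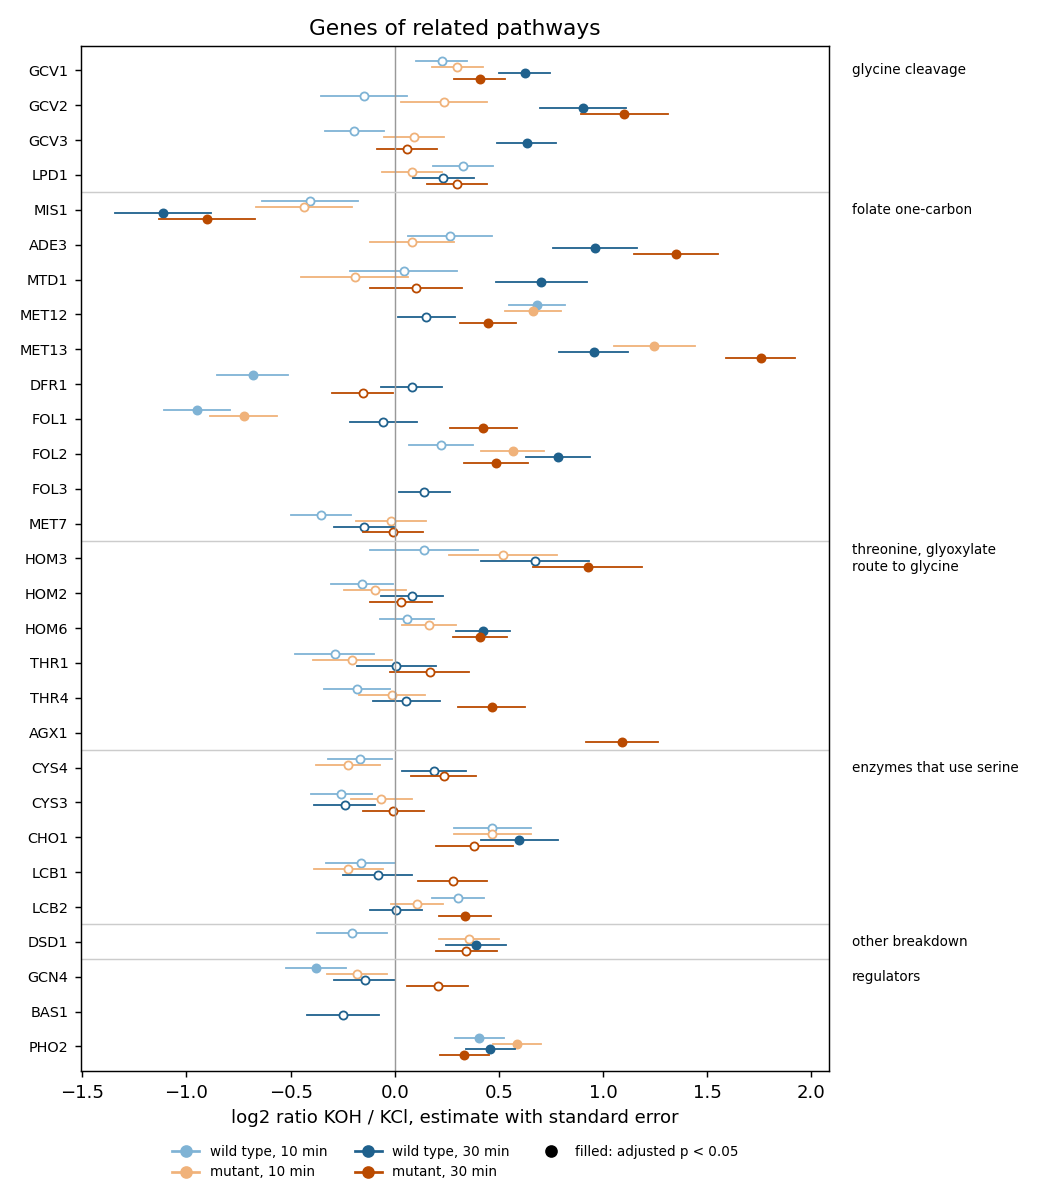
Estimated log2 ratio of KOH over KCl (horizontal axis, bars are standard errors) of the related genes that could be tested, by list, in each of the 4 groups; filled symbols passed the limma test. At 30 min the symbols of ADE3, MET13 and GCV2 lie right of 0 in both strains and those of MIS1 left of it.

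The genes whose ratios ran most like those of SER3 were HIS7, TMT1 and LYS1. Likeness was Pearson's r of the centred ratios over at least 12 shared arrays, among 3210 genes. It is a description, since all points share their arrays and the same 4 groups. HIS7, an enzyme of histidine synthesis, had r = 0.935 over 15 arrays, TMT1, a trans-aconitate methyltransferase, 0.929 over 14, and LYS1, the last enzyme of lysine synthesis, 0.920 over 14. Like SER3, all 3 were higher at 30 min than at 10 min, but their sizes differed. HIS7 went from -0.58 ± 0.15 to 0.79 ± 0.15 in wild type and from -0.46 ± 0.17 to 0.55 ± 0.15 in the mutant. TMT1 was at 2.85 ± 0.29 and 2.44 ± 0.29 at 30 min, near the values of SER3, and LYS1 at 1.36 ± 0.17 and 1.10 ± 0.20.

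For SRY1 the 3 most alike were STB1 (r = 0.908 over 15 arrays), FMP30 (0.901 over 15) and BIO3 (0.872 over 12). Their ratios were small beside those of SRY1: STB1 was at 0.23 ± 0.11 in wild type and at -0.32 ± 0.11 in the mutant at 30 min, FMP30 at 0.33 ± 0.11 and -0.08 ± 0.11, and BIO3 at 0.44 ± 0.14 and -0.29 ± 0.14. All 3 shared with SRY1 a wild type estimate above that of the mutant at 30 min, and not its size. CHA1, with values on 8 arrays, had too few for this measure.

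**Figure D4:**
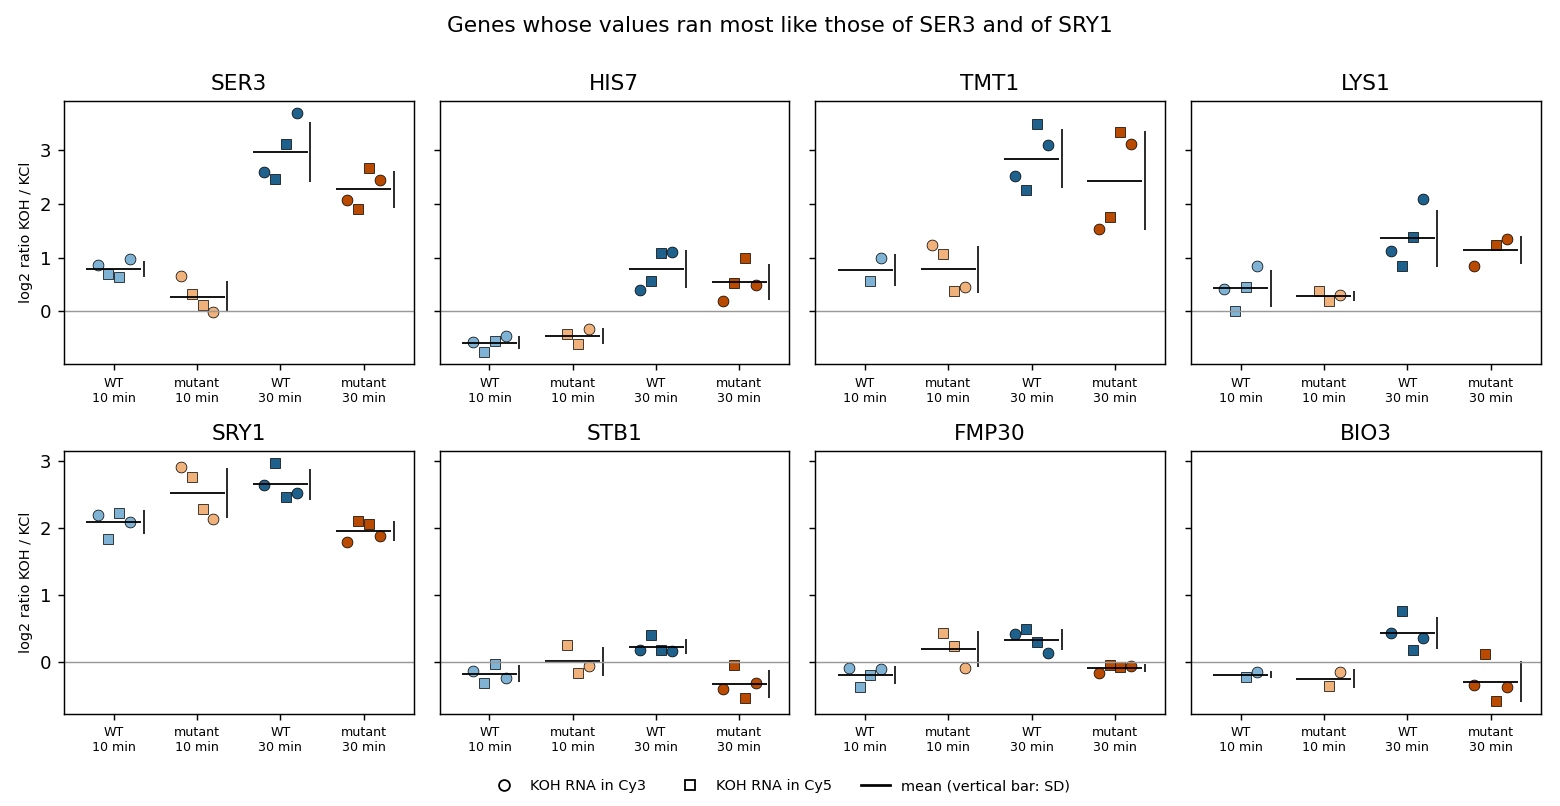
Log2 ratio of KOH over KCl (vertical axis) on each array, by strain and time (horizontal axis), for SER3 and SRY1 and the 3 genes most like each; symbols, lines and bars are as in the plot of the 9 genes. TMT1 reaches 3.49 at 30 min, while STB1, FMP30 and BIO3 stay below 0.8 where SRY1 is at 1.80 or above.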

How the data were processed

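RNA of KOH-treated and KCl-treated yeast was hybridised together on 16 arrays with 2 dyes, per the labels, after oligo(dT)-primed, indirect labelling of cDNA. The authors deposited 1 log2 ratio per feature and array. Base 2 and KOH as numerator are not stated but likely: the maximum was 16.268, on 1 array, and 8.087 on the next, and arrays of opposite dye correlated positively within every group. The scanner, the background correction, any normalization and the cause of empty cells are likewise not given in the sources used here. Systematic names were paired with symbols through a RefSeq table (5675 of 6174 features matched). No depth exists for such ratios, and the number of arrays limits the precision.

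Deposited array medians ran from -0.285 to 0.2615, so each array was centred on its median. Limma 3.58.1 in R 4.3.3 was run on the 16 arrays together, with a coefficient for each group and a dye term. Genes were tested where each group compared had at least 3 arrays in both dyes. Tests were two-sided and adjusted by Benjamini-Hochberg over all genes tested, with a threshold of 0.05. Values after ± are standard errors of the model. The steps were tested on simulated data.

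The 9 genes and the lists were chosen with earlier results of these data known. All 9 are named. Of the related list, the 3 largest rises and falls among calls in each group and any strain difference that passed are named, and for SER3, CHA1 and SRY1 the 3 genes of highest r. Alternatives changed the dye term, the arrays fitted, slide series, centring, normalization, filter, moderation, weights and unit of replication, or left out 1 array. Centring on genes measured on all arrays, and the look at neighbouring genes, were added after seeing the data.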

Additional observations from a re-analysis of the deposited data

Results flagged for a closer look

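Among 61 groups of 4 arrays of the genes named in the text, 0 held an array far enough from the others to pass Dixon's test. Chance alone would flag about 1 group in 20.

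For GLY1 the mutant arrays lay below 0 at 10 min on 4 of 4 arrays and above 0 at 30 min on 4 of 4. The change from 10 to 30 min was 0.58 ± 0.24. FOL1 showed the same pattern in the mutant, from -0.73 ± 0.16 at 10 min to 0.43 ± 0.16 at 30 min, a change of 1.15. In neither case was this difference between times tested.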

How the results depend on the processing

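Of 26 tests on the 9 genes, 19 kept their side of the threshold under all 30 alternatives run for each and 14 kept their direction too, and of 8 calls, those of SER2 and SRY1 in wild type and of SRY1 in the mutant at 10 min passed under every one. Over the 780 alternative values 745 kept both, 23 fell short of the threshold, 3 came to pass it and 9, of 5 results, turned sign, 0 of them past the threshold in either fit. SER2 in the mutant at 10 min ran from -0.35 to 0.16 without 1 array. The SER2 strain difference at 30 min ran from -0.18 to 0.12 and was 0.055 with array weights. SHM2 in the mutant at 10 min was 0.018 in the larger slide series. Its strain difference ran from -0.084 to 0.28 at 10 min and from -0.23 to 0.18 at 30 min without 1 array, and at 30 min was 0.061 in the larger slide series and 0.071 with array weights. Where arrays of opposite dye were averaged into 1 replicate under 16 possible pairings, the fewest calls were 2 in place of 5 for the 9 genes in wild type at 10 min and 1 in place of 3 in the mutant. For the related genes they were then 3 (most 8) in place of 5 in wild type and 2 in place of 5 in the mutant at 10 min, and 3 in place of 12 and 5 in place of 14 at 30 min. With only the groups compared in the fit the related counts were 3 and 9 at 10 min and, for the mutant at 30 min, 6. In the larger slide series of 12 arrays the mutant counts were 3 and 4. Array weights gave 10 and 9 in the mutant, 4 strain differences at 30 min, and 1 for the 9 genes (GLY1). Centring on genes measured on all arrays gave 8 in each strain at 10 min, and scaling arrays to 1 spread gave 8 in the mutant. Quantile normalization moved SER3 in the mutant at 30 min to 2.78, SRY1 in wild type to 3.13 and in the mutant to 2.29, and scaling moved the last to 1.81. Leaving out each array in turn, the counts for the 9 genes ran from 4 to 5 in wild type and from 2 to 3 in the mutant at 10 min, and from 0 to 1 for the strain difference at 30 min. For the related genes they ran from 3 to 6 and 3 to 7 at 10 min, from 9 to 13 and 6 to 14 at 30 min, and from 0 to 2 for the 30 min strain difference. At 10 min no strain difference passed in either list. The 30 min ratios then ran from 2.73 to 3.14 and 2.10 to 2.38 for SER3, from 2.54 to 2.73 and 1.92 to 2.01 for SRY1, and from -2.26 to -2.23 for CHA1. Over all genes, centring on genes measured on all arrays moved the median in wild type at 10 min from -0.04 to 0.07, and the split from 563 higher and 534 lower to 687 and 407. The strain difference at 10 min, 2 higher and 20 lower, was 6 and 19 under scaling and 2 and 8 under quantile normalization. The cause of these changes was not tested. No paired analysis was possible because neither the labels nor the columns give replicate numbers that tie arrays together across groups.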

Other observations

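The next protein-coding genes on either side of the 9 genes, 18 in all, were looked at after the data were seen. In wild type at 10 min 4 of the 8 tested rose and 0 fell, beside 21.1% and 20% of all genes. In the mutant 1 of 9 rose and 0 fell, beside 17.9% and 17.1%. At 30 min 3 of 13 rose and 1 fell in wild type, where 18.4% of all genes rose and 18.4% fell. In the mutant 3 of 12 rose and 1 fell, where 21.5% and 18.8% did. The rises at 30 min were near the shares of all genes.

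JEN1, the permease for lactate and pyruvate, lies next to SRY1 and is transcribed away from it. It too rose in wild type at 10 min, with ratios of 2.58, 1.75, 3.07 and 0.85 and an estimate of 2.06 ± 0.27 (limma adjusted p = 5.32e-05). On the 2 mutant arrays with a value at 10 min it was at 2.39 and 1.00. At 30 min, where SRY1 was at 1.80 or above on every array, JEN1 was at 0.33 ± 0.32 in wild type and 0.15 ± 0.27 in the mutant, and neither passed (adjusted p = 0.439 and 0.676). GSP2, a Ran GTPase gene next to SER1, was higher at both times in wild type, by 1.02 ± 0.19 (limma adjusted p = 0.000609) and 1.36 ± 0.19 (adjusted p = 7.32e-05), and by 0.97 ± 0.19 in the mutant at 30 min (adjusted p = 0.00119). RPN2, a proteasome subunit gene next to SER33, rose by 0.77 ± 0.16 and 0.65 ± 0.16 at 10 min (limma adjusted p = 0.00111 and 0.00525). At 30 min it rose by 0.94 ± 0.16 in the mutant (adjusted p = 0.000288), while in wild type it was at 0.25 ± 0.16 (adjusted p = 0.24). TRX2, next to SER2, rose in wild type at 10 min by 0.41 (limma adjusted p = 0.0381). At 30 min it rose by 0.88 in wild type and 0.44 in the mutant (limma adjusted p = 0.000285 and 0.0289). CIR1, on the other side of SER2, rose in wild type at 30 min by 0.67 (limma adjusted p = 0.0157). MNL2, next to SHM2, was at -0.59 in wild type and -0.75 in the mutant at 30 min (limma adjusted p = 0.0477 and 0.0173).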
